A study of Mus musculus with 24 samples.

Results

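Clustered protocadherins are cell-surface adhesion proteins encoded by genes that lie side by side on one mouse chromosome, in an alpha (Pcdha), a beta (Pcdhb) and a gamma (Pcdhg) cluster. Each gene has a promoter of its own, and neighbouring cells that display the same set of proteins recognise each other through like-to-like binding, a system known mainly from neurons. Alpha and gamma genes join a variable first exon to constant exons shared by the whole cluster, while beta genes consist of a single large exon. The choice of promoter is known to depend on CTCF, cohesin and DNA methylation, and the C-type genes at the ends of the alpha and gamma clusters are less variable between neurons than the others.

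The genes were taken by symbol, as all those that begin with Pcdha, Pcdhb or Pcdhg followed by a digit, a, b or c. RefSeq lists 58 such genes, of which 35 were on the array and 28 could be tested, out of 19722 named genes on the array and 15895 tested in all. The 35 genes were 7 of 14 alpha genes, 22 of 22 beta genes and 6 of 22 gamma genes, measured by 38 probes. Where each probe lies in its transcript is not given in the files used here, so a probe in a constant exon, or one that also binds a close relative, cannot be told from one that reads a single gene.

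Whole lungs of healthy C57BL/6 mice were collected at postnatal days 1, 4, 7 and 14, with 5 samples each, and at day 42, with 4 samples. No sample was treated or genetically altered, per the labels, and age is the only difference between the groups that they name. Each sample was read on a single-colour (Cy3) array, on which the brightness of a spot gives the amount of a transcript. The labels call the samples biological replicates without saying that each is 1 animal, so p-values measure the spread between these samples. In whole tissue, fewer cells of a type and less RNA per cell cannot be told apart. Levels below are log2 of the processed signal relative to the 75th percentile of the same array, so that 0 is the brightness of that percentile, and they are compared between ages but never between probes. Differences are the later minus the earlier age, with the SE of the limma fit, and a change was called at an adjusted p under 0.05 over all genes tested.

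The share of spots well above background ran from 50.4% to 79.7% per array, and 0 spots were saturated. A first principal component with 49.8% of the variance separated 5 arrays from the other 19. They were replicates 4 and 5 of day 1, replicates 1 and 3 of day 4, and replicate 4 of day 42. None was of day 7 or day 14, so the split was uneven over the ages. These 5 arrays also had the lowest 75th percentiles, of 476 to 979 intensity units, and results are given without them where that changed a call or moved a count by over 1.5 times. On the second component, with 27.9% of the variance, replicate 5 of day 14 stood closer to day 7 than the rest of its age did. Replicate 3 of day 14 had the highest share of spots above background.

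Most beta genes were detected in lung, and most alpha genes of the array were not. Of the 22 beta genes, 12 were well above background on all 24 arrays and 8 on 4 to 23 arrays, as were 2 and 1 of the 7 alpha genes and 2 and 3 of the 6 gamma genes. The 28 genes that could be tested were well above background on at least 4 arrays, and 0 of them owed this to a single age. Pcdha4, Pcdha11, Pcdha12, Pcdhac1, a C-type alpha gene, and Pcdhb19 were well above background on 1 array each. For all 5 that array was replicate 3 of day 14, the one with the most spots above background. On that array the mean level of 9 neuron markers was -0.21, against -2.36 to -1.97 on the other day 14 arrays. That of 8 markers of heart and thymus, tissues next to the lung, was 1.71, against -1.12 to 0.07. On replicate 2 of day 1 these means were -1.18 and 1.39, and none of the 5 genes was well above background there. The part of other tissue in the detections on replicate 3 of day 14 was not tested. Pcdhb2 and Pcdhga10 were well above background on 0 arrays. Between 17 and 31 of the 35 genes were detected per array, fewest on replicate 4 of day 1 and most on replicate 3 of day 14. No probe on the array was named for the C-type genes Pcdhgc3 and Pcdhgc4, so their levels could not be given.

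Levels differed between ages for 11 of the 28 tested genes (39.3%) by the moderated F-test over the 5 ages, against 31.8% of all genes tested. The 11 were the C-type alpha gene Pcdhac2 and 10 beta genes, Pcdhb3, Pcdhb5, Pcdhb9, Pcdhb10, Pcdhb11, Pcdhb13, Pcdhb15, Pcdhb17, Pcdhb20 and Pcdhb22, with 0 of the 5 gamma genes. Their age means spanned 0.54 in Pcdhb3 to 1.30 in Pcdhac2 on the log2 scale, and the smallest adjusted p was 0.000418, for Pcdhb22. With slide as a block 10 passed, 9 of them shared, as Pcdhb5 (adjusted p = 0.0526) and Pcdhb20 (adjusted p = 0.0505) were lost and Pcdhb7 (adjusted p = 0.0434) was gained. Without the 5 arrays the count was 15 (53.6%), which held all 11, against 53.9% of all genes.

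**Figure D1:**
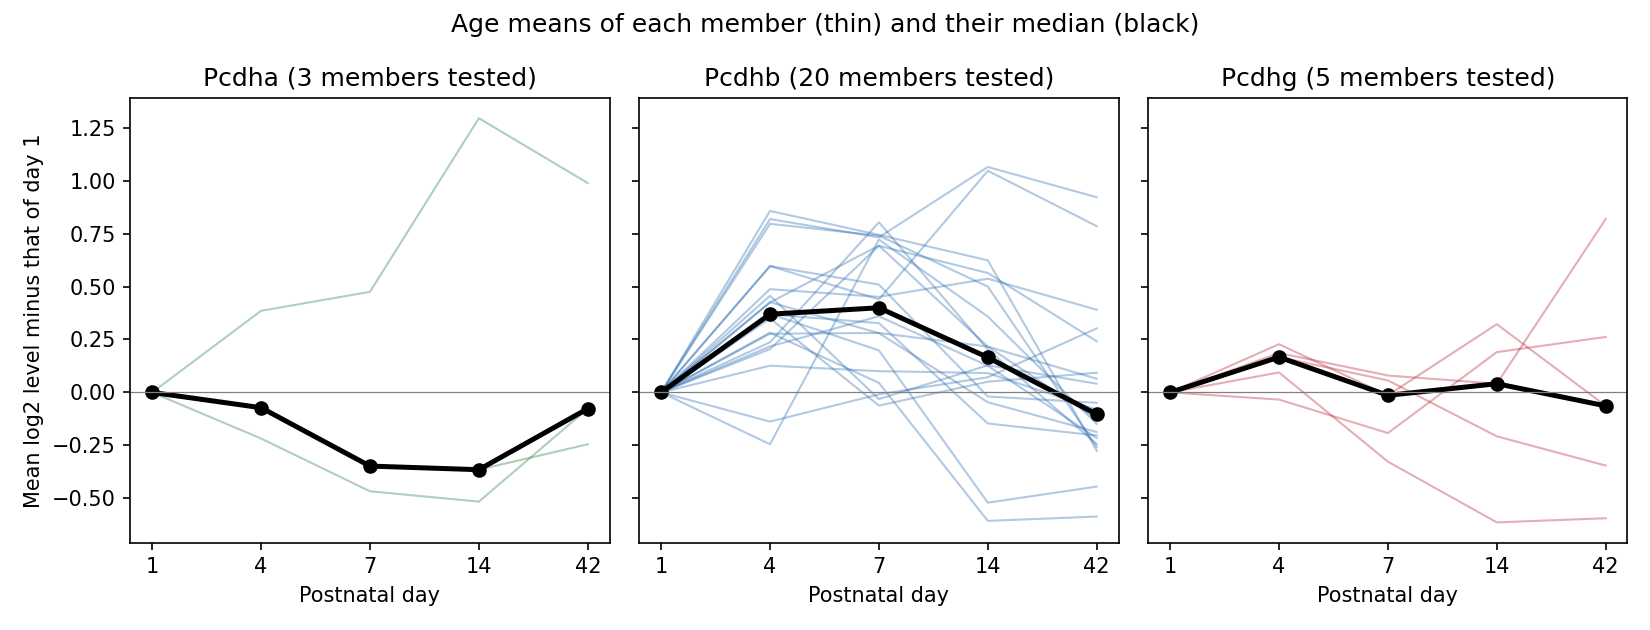
Mean log2 level at each postnatal day minus that of day 1, for the 3 alpha, 20 beta and 5 gamma genes tested (thin lines) and their median (black). The beta median lay 0.37 above day 1 at day 4 and was below day 1 at day 42, while the top line of the alpha panel is Pcdhac2. Means of Pcdhb11 and Pcdhb13 at day 42, Pcdhga5 at day 4 and Pcdhgb1 at days 1 and 4 come from probes not well above background there.

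The beta cluster was, by value, highest at days 4 and 7. Of its 20 tested genes, 16 (80%) had their highest age mean at day 4 or day 7, against 29.8% of all genes tested. The lowest age mean fell at day 42 in 9 of the 20 (20.9% of all genes) and at day 1 in 5 (19.8% of all genes). When the 5 arrays were left out these counts were 14 (35.1% of all genes) and 6 (24.9% of all genes). Under normexp background correction 11 of the 20 were highest at day 4 or 7, against 27.6% of all genes. The number was 18 under median scaling (42.1% of all genes). It was 17 under quantile normalization (33.9% of all genes) and with the authors' table (32.8% of all genes).

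The mean level over the same 20 beta genes is given array by array, and is not separate evidence from the counts above. At day 1 it was -2.80, -2.93, -2.83, -3.31 and -2.82 in replicates 1 to 5, and at day 4 it was -2.61, -2.54, -2.56, -2.58 and -2.53. At day 7 it was -2.55, -2.44, -2.66, -2.43 and -2.62. All 10 arrays of days 4 and 7 thus lay above all 5 arrays of day 1, the closest at -2.66 and -2.80. How often the mean of other genes would do so was not tested. The mean includes Pcdhb8, Pcdhb11 and Pcdhb13, each well above background on 1 of 5 arrays at day 1. At day 14 it was -2.77, -2.66, -2.79, -2.79 and -2.58, and at day 42 it was -3.10, -3.05, -2.86 and -2.75. The day 14 arrays overlapped with those of day 7 and of day 42, and replicate 4 of day 42, one of the 5 arrays set apart, was the highest of its age. The 3 alpha genes averaged -2.49, -2.46, -2.60, -2.35 and -2.27 at days 1, 4, 7, 14 and 42, with SDs of 0.09 to 0.31, and the 5 gamma genes -3.03, -2.90, -3.11, -3.08 and -3.01, with SDs of 0.18 to 0.39.

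The mean of the beta cluster was -2.94 at both day 1 and day 42. Without the 5 arrays it was -2.86 at day 1 and -3.00 at day 42. Genes that mark fibroblasts and mesenchyme were, by their mean, lowest at day 42. The mean level of the 10 markers ranged over 3.53 to 3.97 on the day 1 arrays, 3.83 to 3.99 at day 4, 3.75 to 3.95 at day 7, 3.49 to 3.87 at day 14 and 2.98 to 3.14 at day 42. Between day 42 and day 1, 6 of the 10 fell and 1 rose, where 26.7% of all genes were called. In the same comparison 5 of 7 leukocyte, 2 of 10 epithelial and 1 of 8 endothelial markers rose and 0 fell. Without the 5 arrays 6 leukocyte, 8 epithelial and 4 endothelial markers rose and 0 fell, where 46.6% of all genes were called. All 6 markers of dividing cells fell. Of the 12 neuron markers 9 could be tested, and their mean level ranged over -2.44 to -1.18, -2.20 to -1.49, -2.50 to -0.93, -2.36 to -0.21 and -2.29 to -1.53 at days 1, 4, 7, 14 and 42. Of the 12 neuron markers 6 were well above background on all 24 arrays and each was so on at least 1, with Elavl3 and Nefm among the least detected, on 1 and 3 arrays. Between day 42 and day 1, 1 neuron marker rose and 0 fell, and the same held for the 7 tested markers of peripheral glia. The part of these cell types in the protocadherin levels was not tested.

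From day 1 to day 4, 0 of the 28 genes passed the test, as against 0.0629% of all genes. Before adjustment, 10 had a limma p under 0.05, all of them beta genes and all higher at day 4, where 3.13% of all genes were higher at that p. The number was 6 without the 5 arrays, all of them beta genes and higher, where 5.62% of all genes were. By value 18 of the 20 beta genes were higher at day 4, with a median difference of 0.37, while the median of all genes was -0.0014. Within slides 1, 2 and 3 the beta median was 0.51, 0.21 and 0.22, without the 5 arrays it was 0.24, and under normexp background correction it was 0.15. The 10 genes ran from Pcdhb3 to Pcdhb20 along the cluster, and beta genes are close relatives in sequence.

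Of the 28 tested genes 3 had day 4 arrays that all lay above the day 1 arrays, and these were among the 10 above. The ages did not overlap, in either direction, in 1.62% of all genes. Pcdhb3 had levels of -2.85, -3.01, -2.65, -2.75 and -2.79 at day 4, against -3.40, -3.27, -3.21, -3.52 and -3.09 at day 1. Its difference was 0.49 ± 0.14 (adjusted p = 0.309). Pcdhb11 was well above background on 3 of 5 arrays at day 4 and on 1 of 5 at day 1, with a difference of 0.86 ± 0.27 (adjusted p = 0.441). In Pcdhb6 the difference was 0.28 ± 0.13 (adjusted p = 0.930). The smallest p of the comparison among the clustered genes belonged to Pcdhb13 (0.80 ± 0.21, adjusted p = 0.222), whose probe was well above background on 2 of 5 arrays at day 4 and 1 of 5 at day 1. None of these differences passed the test.

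**Figure D2:**
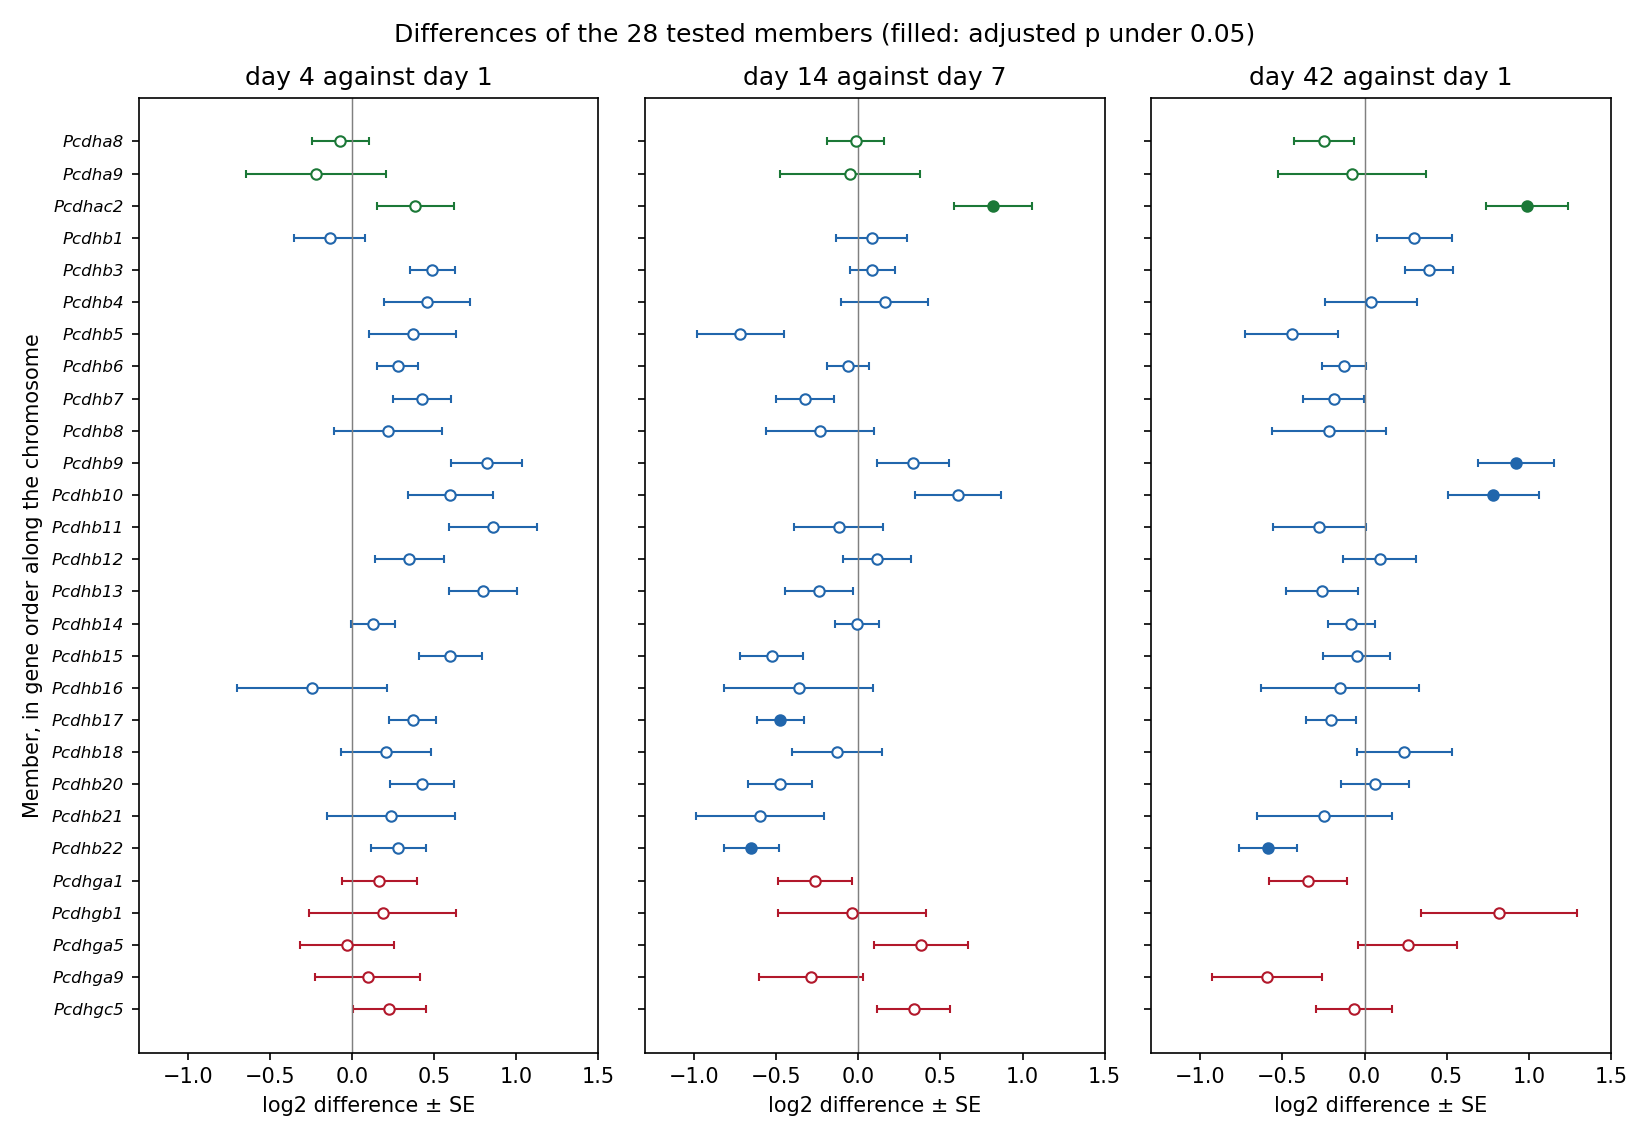
Log2 difference ± SE of each of the 28 tested genes, in gene order, for day 4 against day 1, day 14 against day 7 and day 42 against day 1 (green alpha, blue beta, red gamma; filled points passed the test). No point of the first panel is filled although most beta genes lie right of 0, 3 are filled in the second panel and 4 in the third.

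From day 4 to day 7, 0 of the 28 genes passed, against 0.00629% of all genes, and 1 had an unadjusted limma p under 0.05, as did 8.48% of all genes. That gene, Pcdhb16, had a difference of 0.97, which was 0.24 without the 5 arrays. The beta median was -0.05 beside -0.23 for all genes, and 0.02 beside -0.04 without the 5 arrays. Its sign thus turned without the 5 arrays, and also under the authors' table (0.04, beside -0.01 for all genes).

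From day 7 to day 14 an alpha gene rose and 2 beta genes fell. Pcdhac2 was higher at day 14 while Pcdhb17 and Pcdhb22 were lower, which made 3 of 28 genes called, against 11.6% of all genes. Without the 5 arrays 8 passed, 2 higher and 6 lower, where 38.5% of all genes passed. By value 14 of the 20 beta genes were lower at day 14, with a median of -0.18 beside 0.02 for all genes. Under normexp background correction these medians were 0.00 and 0.05.

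Pcdhac2, the C-type gene that closes the alpha cluster and lies next to the beta genes, had levels of 1.08, 1.53, 0.94, 1.47 and 0.22 at day 14, against 0.31, 0.25, 0.39, 0.09 and 0.10 at day 7. Of the day 14 arrays 4 lay above every day 7 array, and replicate 5 of day 14, which also stood between the ages on the second component, fell among them. The means were 1.05 ± 0.53 at day 14 and 0.23 ± 0.13 at day 7 (SD, n = 5 each), a difference of 0.82 ± 0.23 (adjusted p = 0.0232). Within slides 1, 2 and 3 the difference was 0.87, 1.25 and 0.34. A second probe of the gene, well above background on 23 arrays, gave 0.95 ± 0.28 (adjusted p = 0.0342 with each probe tested). The call was lost, at adjusted p = 0.0511 to 0.0841, without replicate 4 or 5 of day 7 or without replicate 1, 2 or 4 of day 14. Under median scaling the difference was 0.65 and the call was lost as well (adjusted p = 0.132).

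Pcdhb22, the last gene of the beta cluster, had levels of -0.96, -0.79, -1.41, -0.90 and -0.35 at day 14, against -0.23, -0.04, -0.23, -0.44 and -0.21 at day 7. Replicate 5 of day 14 again lay within the day 7 range, and the other 4 lay below it. The difference was -0.65 ± 0.17 (adjusted p = 0.0105), and -0.74, -0.81 and -0.54 within slides.

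In Pcdhb17 the ages did not overlap. Its levels were -0.20, -0.22, -0.46, -0.09 and 0.00 at day 14, against 0.55, 0.34, 0.06, 0.40 and 0.05 at day 7, with a difference of -0.47 ± 0.14 (adjusted p = 0.0315). Within slides the difference was -0.50, -0.49 and -0.46. It no longer passed (adjusted p = 0.0680 to 0.106) when any 1 of replicates 1, 2 and 4 of day 7 or 1, 2 and 3 of day 14 was left out, and likewise under median scaling (adjusted p = 0.0646). Pcdhb5, Pcdhb10 and Pcdhb20 also had groups that did not overlap, which was so for 16.7% of all genes, without passing the test. Of these, Pcdhb5 was well above background on only 1 of 5 arrays at day 14, against 4 of 5 at day 7. Pcdhb10 had a difference of 0.61 (adjusted p = 0.150), Pcdhb5 of -0.72 (adjusted p = 0.0861) and Pcdhb20 of -0.48 (adjusted p = 0.135). Without the 5 arrays, none of which is of either age, all 3 passed at adjusted p = 0.000842, 0.00607 and 0.000899 with the same differences, and the SE of Pcdhb20, for one, was 0.09 in place of 0.20.

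**Figure D3:**
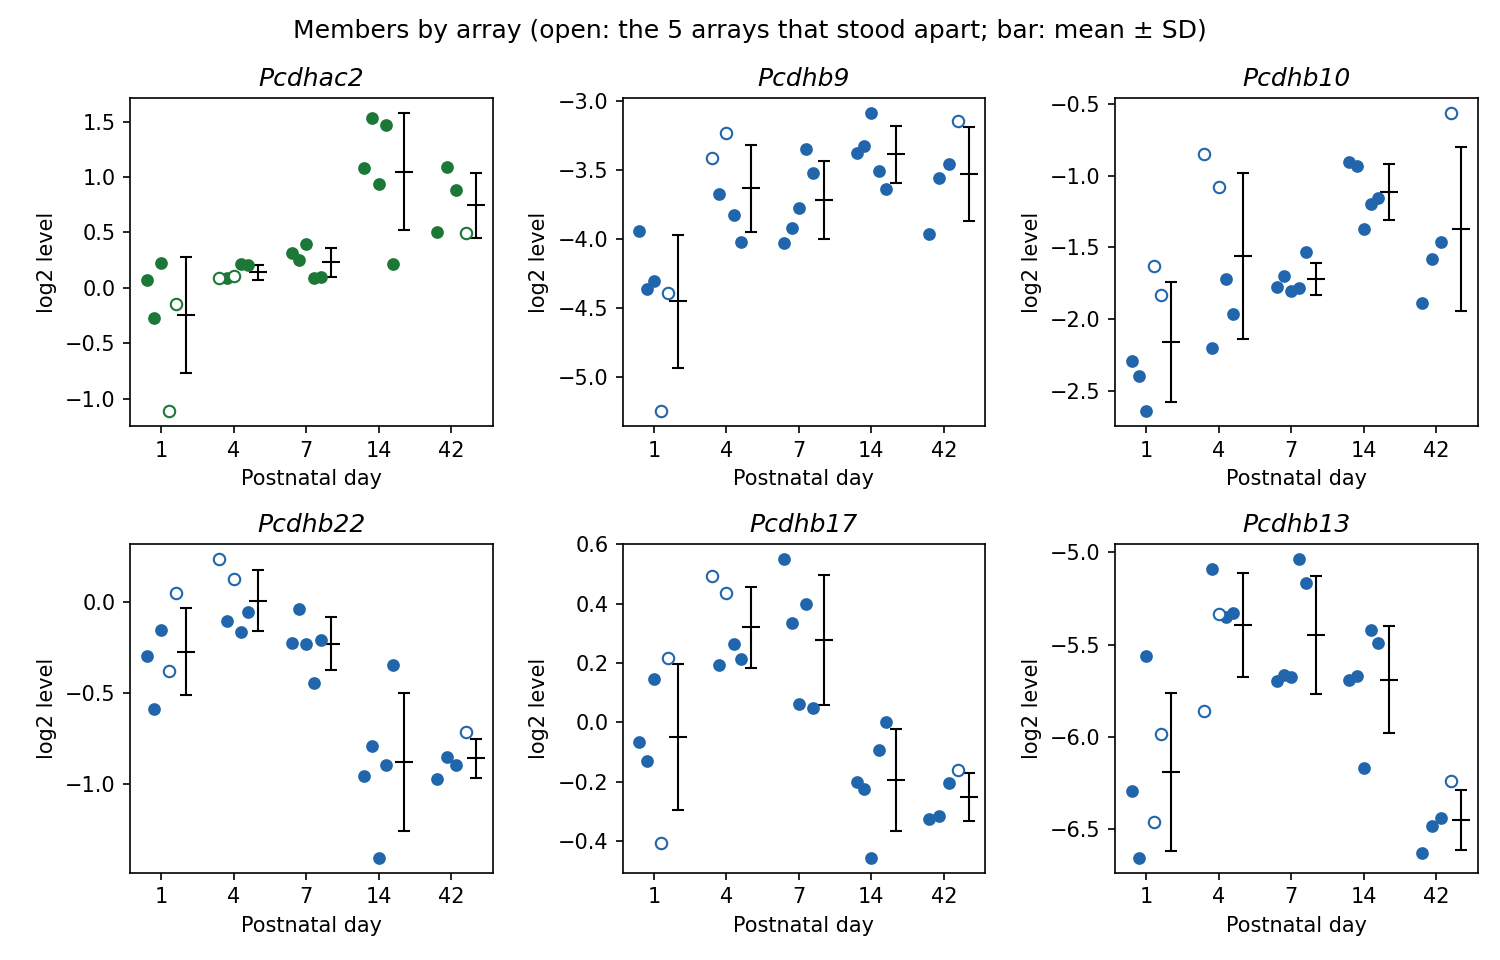
Log2 level on every array by postnatal day for Pcdhac2, Pcdhb9, Pcdhb10, Pcdhb22, Pcdhb17 and Pcdhb13, each panel on its own scale, with mean ± SD beside the points and the 5 arrays set apart drawn open. Pcdhac2 was highest at day 14, Pcdhb22 and Pcdhb17 were lower at days 14 and 42 than at days 4 and 7, and the day 42 points of Pcdhb13 were not well above background.

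From day 14 to day 42, 0 of the 28 genes passed, against 3.69% of all genes, and 3 had an unadjusted limma p under 0.05, all lower at day 42, where 5.11% of all genes were lower at that p. Pcdhb11 averaged -5.78 ± 0.72 at day 42 (SD, n = 4), where 0 of 4 arrays were well above background, and -4.88 ± 0.37 at day 14 (SD, n = 5), where 4 of 5 were. It was at least 1.52-fold lower at day 42, a bound that sets the day 14 mean against the dimmest detected signal of each day 42 array or the probe's own, whichever was higher (adjusted p = 0.0872). Pcdhb13 was well above background on 0 of 4 arrays at day 42 and 1 of 5 at day 14 (adjusted p = 0.0572). Without the 5 arrays 4 genes passed, all lower at day 42, namely Pcdhb6, Pcdhb10, Pcdhb11 and Pcdhb13, where 13.6% of all genes passed. The beta median of -0.15 turned to 0.06 under median scaling, while the median of all genes moved from 0.07 to 0.28.

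Over the whole interval, 3 genes rose to day 42 and 1 fell. Pcdhac2, Pcdhb9 and Pcdhb10 were higher at day 42 than at day 1 and Pcdhb22 was lower, so that 4 of 28 (14.3%) were called, against 26.7% of all genes. Without the 5 arrays 8 passed, the same 3 higher and 5 lower, where 46.6% of all genes passed. The added genes were Pcdhb5, Pcdhb11, Pcdhb21 and Pcdhga9, all lower at day 42. Of these, Pcdhb11 was well above background on 0 of 4 arrays at day 42 and 1 of 5 at day 1, too few to bound a fold. Pcdhb5 was so on 1 of 4 arrays at day 42 and 3 of 5 at day 1. By value 11 of the 28 genes were higher and 17 lower, with a median of -0.08 beside -0.06 over all genes.

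Pcdhac2 had levels of 0.50, 1.09, 0.88 and 0.50 at day 42, against 0.08, -0.27, 0.23, -1.11 and -0.15 at day 1, so the ages did not overlap, as in 16.5% of all genes. The means were 0.74 ± 0.29 at day 42 (SD, n = 4) and -0.25 ± 0.52 at day 1 (SD, n = 5), a 1.98-fold difference (0.99 ± 0.25 on the log2 scale, adjusted p = 0.00429). It was 0.81 without the 5 arrays, which hold the lowest day 1 value (adjusted p = 0.0146). The second probe gave 0.47 ± 0.29 and did not pass (adjusted p = 0.316). Within slides 1, 2 and 3 the difference was 1.02, 1.20 and 0.27. In this comparison slide 3 sets only replicate 4 of day 42, one of the 5 arrays, against replicate 3 of day 1. On slide 1 the only day 42 array was replicate 1.

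Pcdhb9 and Pcdhb10 are neighbours in the middle of the beta cluster. Pcdhb9 had levels of -3.96, -3.56, -3.45 and -3.14 at day 42, against -3.94, -4.36, -4.30, -5.25 and -4.39 at day 1. One array of each age lay within the range of the other, and replicate 4 of day 1 was far the lowest. The difference was 0.92 ± 0.23 (adjusted p = 0.00428), and 0.55 without the 5 arrays (adjusted p = 0.0260). Under normexp background correction it was 0.19 and did not pass (adjusted p = 0.523).

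In Pcdhb10 the levels were -1.89, -1.58, -1.46 and -0.56 at day 42, against -2.29, -2.40, -2.64, -1.63 and -1.83 at day 1. Replicate 4 of day 42 and replicates 4 and 5 of day 1, all set apart, were the highest of their ages, and the ages overlapped. The difference was 0.79 ± 0.27 (adjusted p = 0.0368) and ranged over 0.07, 0.59 and 2.08 within slides 1, 2 and 3. The value of slide 3 rests on replicate 4 of day 42 and replicate 3 of day 1 alone. Without the 5 arrays it was 0.80 and the ages did not overlap (adjusted p = 0.000420). The call was lost under normexp background correction (0.53, adjusted p = 0.144), quantile normalization (0.71, adjusted p = 0.0913) and median scaling (0.73, adjusted p = 0.174). The call was also lost when any 1 of replicates 1, 2 and 3 of day 1 or 3 and 4 of day 42 was left out (adjusted p = 0.0619 to 0.124).

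Pcdhb22 had levels of -0.97, -0.85, -0.90 and -0.72 at day 42, against -0.30, -0.59, -0.15, -0.38 and 0.05 at day 1. No array of day 42 reached the lowest of day 1. The difference was -0.59 ± 0.18 (adjusted p = 0.0151), and -0.63, -0.61 and -0.56 within slides. It was -0.64 under median scaling, where the call was lost (adjusted p = 0.0896). Pcdhb3 was higher at day 42 by 0.39 ± 0.15 with groups that did not overlap, and stood just outside the threshold (adjusted p = 0.0504).

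The 2 tested genes of each cluster with the smallest difference between the first and the last age are given here. Pcdhb4 averaged -2.06 ± 0.66 at day 42 and -2.11 ± 0.34 at day 1 (SD, n = 4 and 5), and Pcdhb15 averaged -4.08 ± 0.19 at day 42 and -4.03 ± 0.42 at day 1. Pcdhb15 was among the genes that differed between any ages, with means of -3.43 at day 4 and -3.52 at day 7. Pcdhgc5, the C-type gene that ends the gamma cluster, averaged -5.01 ± 0.38 at day 42 and -4.94 ± 0.38 at day 1. Pcdha8 averaged -2.94 ± 0.28 at day 42 and -2.69 ± 0.30 at day 1, and Pcdha9 -4.60 ± 0.68 at day 42 and -4.53 ± 0.97 at day 1. Pcdhga5 averaged -5.31 ± 0.25 at day 42 and -5.57 ± 0.50 at day 1, from a probe that was well above background on 1 of 4 and 2 of 5 arrays. The differences of these genes, from -0.24 ± 0.18 in Pcdha8 to 0.26 ± 0.30 in Pcdhga5, lay within 2 SE of 0. Larger changes are not excluded, as Pcdha9 had an SE of 0.45 and differences of -1.33, -0.11 and 1.78 within slides.

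For some clustered genes the 5 arrays set apart lay outside the range of all others. All 5 lay below the other 19 arrays for Pcdhb18 and Pcdhb21, and all 5 lay above them for Pcdha8, Pcdhb12 and Pcdhga9, together 17.9% of the tested genes against 46.1% of all genes. Pcdhb21 ran from -2.35 to -1.29 on the 5 arrays, against -1.25 to 0.16 on the other 19. Pcdhga9 ran from 6.03 to 6.69 on the 5 arrays, against 4.61 to 5.51 on the other 19. A second probe of Pcdhga9 gave a difference of -0.74 ± 0.35 between day 42 and day 1, beside -0.59 ± 0.34 for the first, and neither passed (adjusted p = 0.171 and 0.266 with each probe tested). Pcdhb16 ran from -5.22 to -3.10 on the 5 arrays, against -3.33 to -2.28 on the other 19. Averaged over the 3 ages concerned, its level on these arrays minus that of the other arrays of the same age was -1.54, and for Pcdha9 it was 1.26. The beta genes thus moved in both directions on these arrays, and without them the mean of the beta cluster was -3.00 at day 42 and -2.86 at day 1, beside -2.94 at both ages with them.

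**Figure D4:**
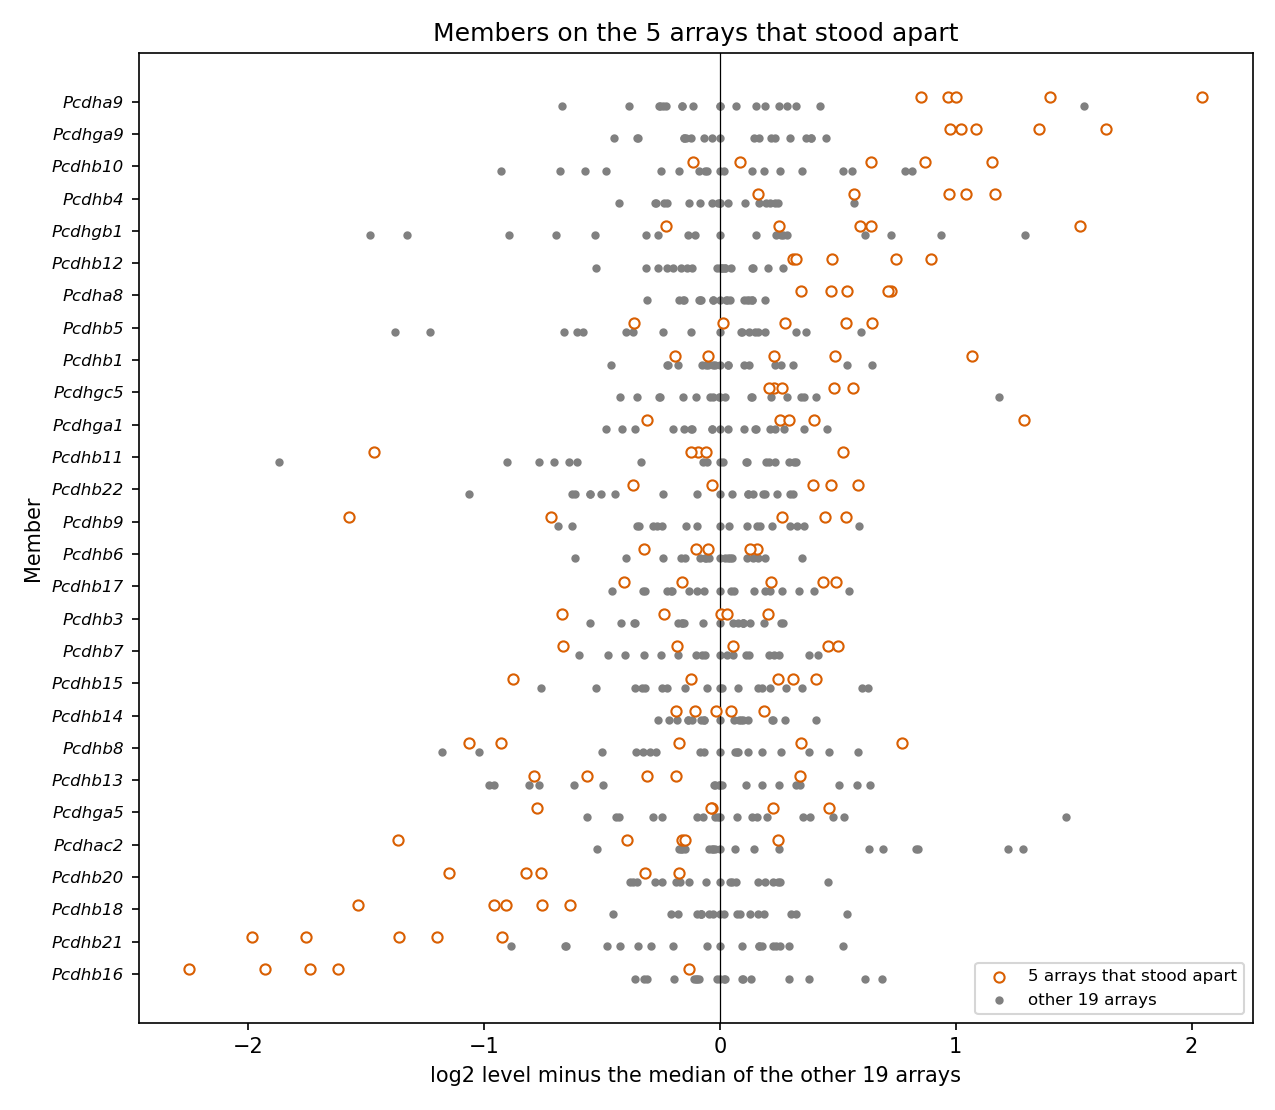
Log2 level of each tested gene minus its median over the other 19 arrays, for the 5 arrays set apart (open circles) and the other 19 (dots), ordered by the shift. Pcdhb16, Pcdhb21 and Pcdhb18 at the bottom and Pcdha9 and Pcdhga9 at the top show the largest shifts. In Pcdhb16 and Pcdha9 the 5 arrays overlap with the other 19.

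Genes that act on the clusters or with their proteins were described from lists chosen with earlier results in view. Of 18 tested regulators, which include CTCF, the cohesin subunits and DNA methyltransferases, 6 fell and 0 rose between day 42 and day 1, where 26.7% of all genes were called, and the median was -0.14. With the 5 arrays left out 10 fell and 0 rose, where 46.6% of all genes were called. The median turned in sign with the authors' table (0.03), where that of all genes was 0.06 in place of -0.06. The maintenance methyltransferase Dnmt1 fell most (-1.48 ± 0.26), followed by the co-repressor Trim28 (-1.38 ± 0.36), the repressor of neuronal genes Rest (-1.19 ± 0.20) and the de novo methyltransferase Dnmt3a (2.51 at day 42 and 3.51 at day 1), with adjusted p = 6.59e-05 to 0.00593. Ctcf had a difference of -0.08 ± 0.21 and did not pass. All 6 markers of dividing cells fell in the same comparison, with a median of -3.75, and their part in the levels of these regulators was not tested.

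Of 22 tested partners of the proteins, 3 rose and 3 fell between day 42 and day 1, a share near the 26.7% of all genes called, with a median of -0.04, which was 0.04 under quantile normalization and 0.12 with the authors' table. The receptor kinase Ret (1.17 ± 0.43, adjusted p = 0.0462), the cytoplasmic kinase Ptk2b (1.08 ± 0.29, adjusted p = 0.00758), which protocadherins are known to inhibit, and the actin regulator Cyfip2 (0.80 ± 0.21, adjusted p = 0.00593) rose. Wasf1, which works with Cyfip2 in the WAVE complex, fell (-1.54 ± 0.23, adjusted p = 2.36e-05). Nlgn1, a synaptic adhesion protein, was at least 1.28-fold lower at day 42, where 0 of 4 arrays were well above background against 3 of 5 at day 1 (adjusted p = 0.00873).

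Among protocadherins outside the clusters and other cadherins, the calls between day 42 and day 1 were falls. Of 9 tested non-clustered protocadherins, 2 fell and 0 rose, with a median of -0.44, where 26.7% of all genes were called. Once the 5 arrays were left out 5 fell and 0 rose, where 46.6% of all genes were called. Pcdh20 averaged -5.20 at day 42 and -2.99 at day 1 (-2.21 ± 0.51, adjusted p = 0.00205), and Pcdh10 was at least 1.19-fold lower, being detected on 0 of 4 arrays at day 42 and 3 of 5 at day 1 (adjusted p = 0.0132, and 0.0526 without the 5 arrays, where the call was lost). Of 19 tested classical and other cadherins, 8 fell and 0 rose, with a median of -0.56, although 2 rose under quantile normalization, 4 with the authors' table and 3 without the 5 arrays. Cdh4 (-1.91 ± 0.37), Cdh3 (-1.81 ± 0.37), the neural cadherin Cdh2 (-1.67 ± 0.25) and Dchs1 (-1.65 ± 0.36), which binds Fat4, fell most, with adjusted p = 1.99e-05 to 0.00116. Whether these lists differed from the clustered protocadherins was not tested.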

How the data were processed

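Total RNA of 24 whole mouse lungs was labelled with Cy3, per the labels' protocols, and hybridized on 3 slides of 8 arrays, with every age on each slide. The processed signal is an intensity with background subtracted, and per the file headers it was made with Feature Extraction 10.7.3.1, while the submitters' processing notes name version 10.7.1.1. Other columns used, per the file headers, are median intensity of spot and background, and flags that mark a spot as saturated, as not uniform or as well above background. The authors' deposited table of log2 values served as an alternative, and how it was scaled is not given in the sources used here.

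Log2 of the processed signal minus the 75th percentile of each array was computed. Spots flagged as not uniform were left out, and spots of a probe were averaged. Probes were named by RefSeq accession through a GRCm38.p6 gene table, used for names and gene order alone. It gave 26056 probes 1 of 19752 symbols. Each gene was represented by its brightest probe, and tested if that probe was well above background (a share of at least 0.5 of its spots) on at least 4 arrays. The 5 age means were fitted on all 24 arrays with limma 3.58.1 in R 4.3.3, with Benjamini-Hochberg adjustment over 15895 genes. The number of arrays, not counting error, limits the precision.

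The genes and gene lists were chosen with earlier results of these data known. Named by rule were C-type genes, genes past the test, the 2 of each cluster with the smallest difference between day 42 and day 1, and up to 4 called genes per list and comparison. Other clustered genes were named after their values were seen. Same-numbered replicates did not deviate together (46 pairs, median correlation -0.01, 16 of them over 0.1), so the numbers were taken as names. On simulated data for day 42 against day 1 with 15895 genes, the fit was checked for known changes. Alternatives were another background correction, scaling, filter, probe rule, slide or replicate block, array weights, fewer ages, and left-out arrays.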

Additional observations from a re-analysis of the deposited data

Results flagged for a closer look

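Within an age, 1 array lay far from the others in 9 of 155 groups of arrays tested with Dixon's ratio (5.81%, where chance gives about 5%). Values are log2 levels, and the range in each case is that of the other arrays of the same age. Replicate 4 of day 1, one of the 5 arrays set apart, read -5.22 for Pcdhb16 (others -3.17 to -2.68) and -3.31 for the mean of the tested Pcdhb genes (others -2.93 to -2.80). Replicate 4 of day 42, also set apart, read 6.08 for Pcdhga9 (others 4.61 to 4.71) and -2.21 for Pcdhb18 (others -1.33 to -1.25). Replicate 3 of day 14, with the most spots above background, read -3.54 for Pcdha9 (others -5.75 to -5.25), -2.97 for Pcdhb16 (others -3.08 to -3.06) and -2.44 for the mean of the tested Pcdhg genes (others -3.39 to -3.13). Replicate 5 of day 14 read 5.29 for Pcdhga9 (others 4.91 to 4.99), and replicate 4 of day 4 read -1.03 for Pcdhb6 (others -0.87 to -0.82).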

How the results depend on the processing

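The number of clustered genes called between any ages was 11, and it was 4 under normexp background correction, 7 with a filter on all 24 arrays (16 of the genes in that fit), 7 with a replicate block and 22 with array weights. Between day 42 and day 1 the 4 calls became 2 under normexp, 2 under median scaling, 8 without the 5 arrays, 7 without those and replicate 5 of day 14, 9 with array weights and 0 with the compared ages fitted alone. Between day 14 and day 7 the 3 calls became 6 under quantile normalization, 5 with the authors' table, 8 without the 5 arrays, 10 without the 6, 16 with array weights and 8 with the compared ages alone. Between day 42 and day 14 the 0 calls became 4 without the 5 or the 6 arrays and 11 with array weights, and array weights gave 2 calls between day 4 and day 1 and 4 between day 7 and day 4. The cause of these shifts was not tested. With 1 array left out at a time, the counts ranged from 0 to 0, 0 to 0, 1 to 4, 0 to 1, 3 to 5 and, between any ages, 8 to 14. The count for day 14 against day 7 left the main value by over 1.5 times without replicate 4 of day 7 or replicate 1 or 2 of day 14, and that for day 42 against day 14 without replicate 2, 3 or 4 of day 1, replicate 1 of day 4, replicate 3 of day 14 or replicate 4 of day 42. With the replicate block Pcdhb10 (adjusted p = 0.0560) and Pcdhb17 (adjusted p = 0.0595) lost their calls. Of the 7 called differences 0 reversed under any alternative. Signal over background limits Pcdhb11, Pcdhb13, Pcdhga5 and Pcdhgb1, which were not well above background on any array of at least 1 age. It also limits Pcdhb5, which was well above background on 1 of 5 arrays at day 14 and 1 of 4 at day 42.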
